A study of Mus musculus with 2 samples.

Results

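The 10 genes described here (Glul, Oat, Axin2, Lgr5, Tbx3, Rhbg, Slc1a2, Lect2, Rnf43 and Znrf3) are known targets of Wnt/β-catenin signalling in the hepatocytes that surround the central vein. They were chosen by name and not by their values, although earlier results of these data were known. On the array 13 probes carry a RefSeq transcript of 1 of them, among 20652 genes named by a probe. All 10 were measured, each with at least 1 probe well above background on both arrays. The study hybridised liver RNA of male mice to Agilent Whole Mouse Genome arrays in order to find hepatic genes and pathways that respond to nutrient intake. By the design text each group was 1 pool of the livers of 3 mice, and the files hold 1 array per group. A legend gives an n of 3 for the arrays without saying whether it counts mice or arrays. Fasting mice went without food overnight, for 16 h according to one label and for 14 to 16 h according to another. Feeding mice are described as fed after a fast in one label and as having free access to food in another, so the time since their meal is not known. The labels give no strain or genotype for these animals; the methods name C57BL/6 J males aged about 8 to 12 weeks for the study's wild type mice. With 1 array per group nothing checks a difference between feeding and fasting against other mice, and neither a p-value nor an error between mice is given. Liver RNA is a mixture, and fewer cells of a type and less RNA per cell cannot be told apart.

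Wnt ligands and R-spondins are made by endothelial cells of the central vein. Wnt ligands bind Frizzled and LRP receptors, which stops the destruction complex of Axin, APC and GSK3 from degrading β-catenin, and β-catenin then acts on its targets through TCF/LEF factors. The ubiquitin ligases RNF43 and ZNRF3 remove Frizzled receptors from the cell surface, and R-spondins bound to LGR receptors block these ligases. RNF43, ZNRF3, AXIN2 and LGR5 are thus both products and regulators of the pathway. The other members include the enzymes and transporters with which pericentral hepatocytes capture ammonium and make glutamine.

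RefSeq promoter windows, which run from 250 bases before to 50 bases after a start site in GRCm38.p6, were listed for 6 of the 10 members, with 7 windows in all; Lgr5, Tbx3, Rhbg and Znrf3 were not matched. The TCF/LEF core CTTTGA or its reverse complement TCAAAG was searched on both strands, and 5257 of all 32851 windows (16.0%) held it. Among the members it was found in the windows of Slc1a2 and Lect2, and not in those of Glul, Oat, Axin2 and Rnf43. The windows of Rnf43, the member with the largest difference, and of the 2 members with a match are shown, with the matched bases in capitals. They lie at chr11:87662837-87663136 (+ strand) and chr11:87699647-87699946 (+ strand) for the 2 start sites of Rnf43, at chr13:56548489-56548788 (- strand) for Lect2 and at chr2:102706188-102706487 (+ strand) for Slc1a2.
Rnf43, start site 1: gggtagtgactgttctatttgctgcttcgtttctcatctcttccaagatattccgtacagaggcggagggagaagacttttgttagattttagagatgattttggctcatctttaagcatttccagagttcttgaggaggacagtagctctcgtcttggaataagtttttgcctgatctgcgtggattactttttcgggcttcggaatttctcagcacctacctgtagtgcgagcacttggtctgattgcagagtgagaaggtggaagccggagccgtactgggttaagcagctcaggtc
Rnf43, start site 2: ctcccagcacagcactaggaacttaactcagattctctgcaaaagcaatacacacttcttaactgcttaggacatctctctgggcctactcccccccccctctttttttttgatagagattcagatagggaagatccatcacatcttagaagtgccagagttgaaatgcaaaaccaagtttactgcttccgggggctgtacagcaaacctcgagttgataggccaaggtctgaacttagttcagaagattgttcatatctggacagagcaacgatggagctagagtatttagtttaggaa
Lect2: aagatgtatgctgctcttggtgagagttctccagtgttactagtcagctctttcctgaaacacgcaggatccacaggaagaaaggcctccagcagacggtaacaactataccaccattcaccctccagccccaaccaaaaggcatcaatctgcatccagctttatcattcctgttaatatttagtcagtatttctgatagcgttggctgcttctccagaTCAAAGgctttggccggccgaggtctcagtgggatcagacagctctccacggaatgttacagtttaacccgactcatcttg
Slc1a2: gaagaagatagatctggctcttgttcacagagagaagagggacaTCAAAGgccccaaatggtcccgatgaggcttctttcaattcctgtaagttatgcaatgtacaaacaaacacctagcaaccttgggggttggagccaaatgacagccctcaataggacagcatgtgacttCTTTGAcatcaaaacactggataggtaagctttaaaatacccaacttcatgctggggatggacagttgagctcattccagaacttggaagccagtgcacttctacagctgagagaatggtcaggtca
The first matched base lies at -31 from the start site in Lect2, and at -206 and -77 in Slc1a2. A match describes these letters only, and no match says nothing about sequence outside the window.

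Upon feeding, 3 of the 10 members were at least 2-fold higher, and they are Rnf43 (4.09-fold), Lgr5 (2.21-fold) and Tbx3 (2.11-fold). Axin2 (1.69-fold) and Lect2 (1.65-fold) were higher by less. Glul, Oat, Rhbg and Slc1a2 differed by less than 1.2-fold, and the dim Znrf3 was 1.31-fold lower. Folds are ratios of the processed signal, an intensity after background subtraction, once both arrays had been quantile normalized, and 2-fold is the threshold of the study's methods. Of the 16346 genes measured, 3.29% were at least 2-fold higher upon feeding and 4.62% at least 2-fold lower, 7.91% together, while 3 of the 10 members were higher and 0 lower. At 1.5-fold, 5 members were higher and 0 lower, beside 10.5% and 10.6% of all genes, 21.1% together. At 3-fold, 1 member was higher and 0 lower, beside 0.967% and 1.9% of all genes, 2.87% together. The median difference of the members was 0.44 on the log2 scale, against 0.00 for the 14515 genes well above background on both arrays. These counts describe a list of 10 genes on 2 arrays and were not tested.

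**Figure D1:**
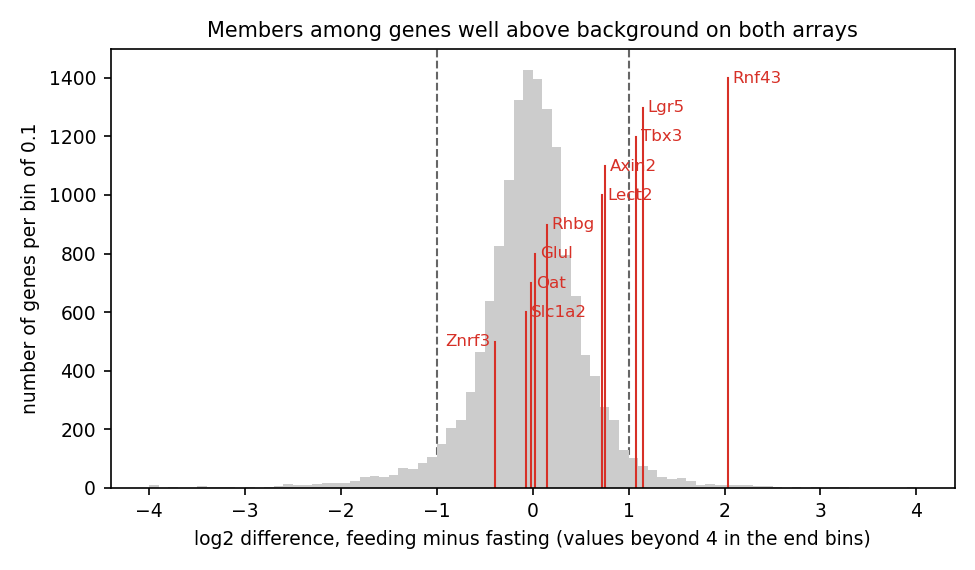
Number of genes (y axis, per bin of 0.1) by log2 difference between feeding and fasting (x axis) for the 14515 genes well above background on both arrays, with dashed lines at 2-fold. Red lines mark the 10 members (their heights carry no value): Rnf43, Lgr5 and Tbx3 lie beyond the upper dashed line and no member lies beyond the lower one.

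Rnf43, the ubiquitin ligase that clears Frizzled receptors, showed the largest difference of the members. Its 1 probe (NM_172448) had a processed signal of 881.9 on the fasting array and 3452 on the feeding array. The difference was 2.03 on the log2 scale, and 54 of the 14515 genes (0.372%) had a larger increase. The SD of a difference between replicate spots of similarly bright probes was 0.10 on the log2 scale, a spread that covers the measurement on the array and not the mice. Rnf43 was the 1 member past 2-fold under each scaling and background correction tried, with differences from 1.86 to 2.20.

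Znrf3, the paralogue of Rnf43 with the same known role, was close to the detection limit. Its probe (NM_001080924) had a signal of 16.2 upon fasting and 11.2 upon feeding, with errors given by Feature Extraction of 3.59 and 1.75. The difference of -0.39 on the log2 scale compares with an SD of 0.29 between replicate spots of dim probes. Under the normexp background correction it was -0.06. The local background beside this spot was 41.5 upon fasting and 24 upon feeding.

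Lgr5, a receptor of R-spondins and a marker of the hepatocytes next to the central vein, had a signal of 352.0 upon fasting and 709.7 upon feeding (NM_010195). The difference was 1.15 on the log2 scale, and 2.15% of the genes increased more. Before normalization the feeding signal was 2.02 times the fasting signal. Tbx3, a transcriptional repressor, had signals of 694.7 upon fasting and 1374 upon feeding (NM_011535), a difference of 1.08 with 2.54% of the genes above it. For Tbx3 the ratio before normalization was 1.98. Both genes lie near the threshold: under the normexp correction Lgr5 and Tbx3 each differed by 0.90, and without the offset of that correction by 0.98 and 0.95, all short of 2-fold. The SD between replicate spots at these signals was 0.14.

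Axin2, a scaffold of the destruction complex and the standard readout of Wnt/β-catenin activity, had 2 probes of the same transcript (NM_015732). The brighter probe gave a signal of 186.7 upon fasting and 276.4 upon feeding, a difference of 0.75 on the log2 scale. It was 0.44 under the normexp correction and 0.80 with scaling by the median. The other probe, at 3.34 and 2.85, lay too close to background on both arrays to give a difference. Axin2 was therefore higher on the feeding array under the settings tried, short of 2-fold, and by more than the SD of 0.14 between replicate spots.

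**Figure D2:**
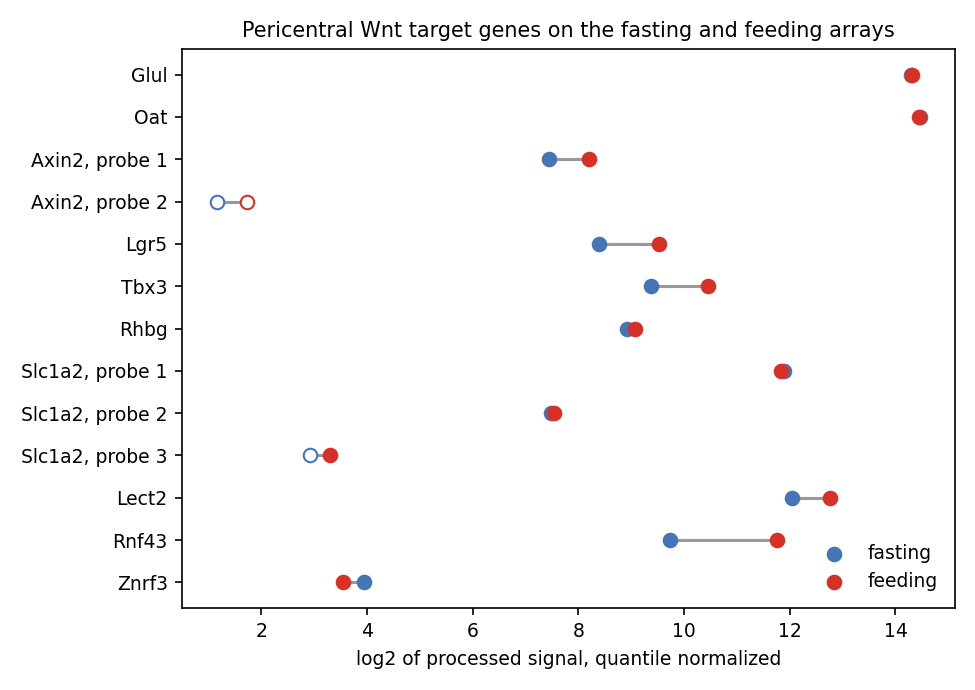
Quantile normalized log2 processed signal (x axis) of the 13 probes of the 10 members (y axis) on the fasting array (blue) and the feeding array (red), with open points for signals not well above background. Long lines join the points of Rnf43, Lgr5, Tbx3, Axin2 probe 1 and Lect2, whereas the points of Glul and Oat overlap; the position along the axis is not comparable between probes.

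The members of ammonium, glutamate and glutamine metabolism differed little. Glul, which encodes glutamine synthetase, had a signal of 20188 upon fasting and 20270 upon feeding (NM_008131), a difference of 0.03 on the log2 scale. Oat, the ornithine aminotransferase that feeds glutamate into this route, had signals of 22758 and 21998 (NM_016978), a difference of -0.02. Both differences were smaller than the SD of 0.10 between replicate spots. With each array scaled by its median they were 0.24 and 0.19, a setting that raises the median of all genes by 0.12.

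Rhbg, an ammonium transporter, had a signal of 510.2 upon fasting and 510.6 upon feeding (NM_021375), which normalization turned into a difference of 0.15. Under the normexp correction this difference was 0.00. Slc1a2, the glutamate transporter GLT-1, was measured by 3 probes. The brightest (NM_011393) gave 3849 upon fasting and 3599 upon feeding, a difference of -0.07, and a second probe for another transcript (NM_001077514) gave 193.0 and 171.6, a difference of 0.04 after normalization. The third, for that same transcript, gave 7.90 and 9.43 and was not well above background upon fasting. The sign of the Slc1a2 difference changed with the scaling, from -0.07 to 0.14. Less than 1.2-fold of difference, as in these 4 members, was found in 47.3% of the genes well above background on both arrays.

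Lect2, a secreted hepatocyte protein, had a signal of 4267 upon fasting and 6904 upon feeding (NM_010702). The difference was 0.72 on the log2 scale, with 7.01% of the genes above it, and it ran from 0.72 to 0.93 over the settings. This is well beyond the SD of 0.10 between replicate spots at this brightness. Lect2 is the member whose promoter window holds the match at -31, while Slc1a2, with 2 matches, was among those that differed little. Rnf43, with the largest difference, had no match. A link between a match and a difference was not tested.

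**Figure D3:**
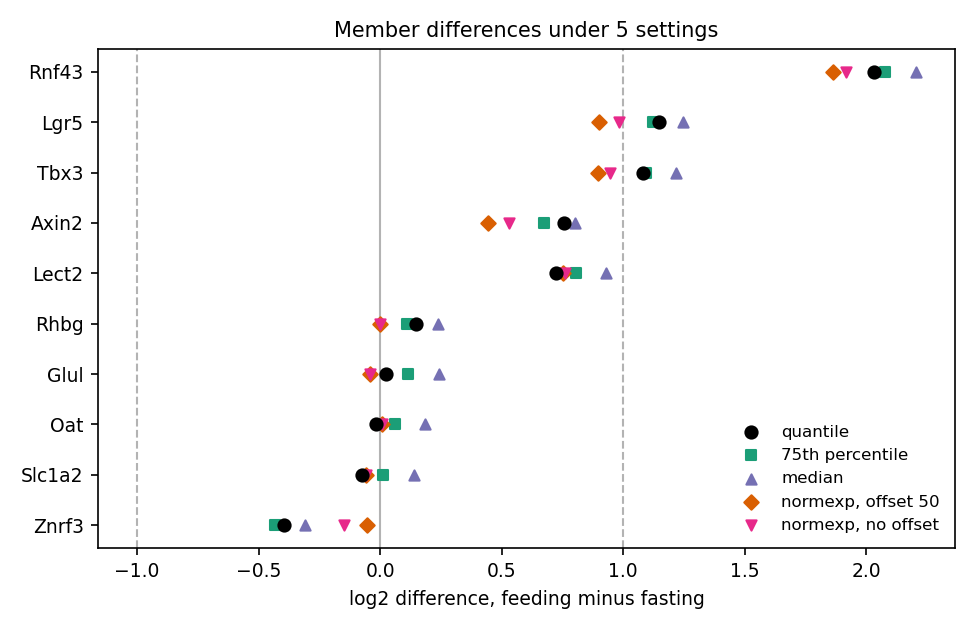
Log2 difference between feeding and fasting (x axis) of each member (y axis) under quantile normalization (black circles), scaling by the 75th percentile (squares) or by the median (triangles), and the normexp correction with (diamonds) and without (inverted triangles) its offset of 50, with dashed lines at 2-fold. Rnf43 stays beyond the upper line in each, and Lgr5 and Tbx3 lie on either side of it. Rhbg, Glul, Oat and Slc1a2 stay within 0.25 of 0, and the dim Znrf3, in the lowest row, runs from -0.43 to -0.06.

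Of 8 paralogues of the members, 5 were measured and 1 was past 2-fold, beside 7.91% of all genes, and this was not tested against the members. Lgr4, the broadly expressed R-spondin receptor, had signals of 118.0 upon fasting and 154.5 upon feeding, a difference of 0.60. Axin1 differed by -0.33, Tbx2 by -0.03 and Slc1a1 by -0.41. Rhcg, an ammonium transporter like Rhbg, was 4.72-fold higher from a dim signal of 30.1 to 123.1, a log2 difference of 2.24 that was 0.76 under the normexp correction. Lgr6, Rhag and Slc1a3 were not well above background on either array.

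Other known Wnt targets, from a list of 15 genes outside the members, included several that were higher upon feeding. Of the 14 measured, 5 were at least 2-fold higher and 1 lower, beside 3.29% and 4.62% of all genes. The median difference was 0.57 over the 13 well above background on both arrays. The counts of this and the following lists were not tested. Sox9, a transcription factor that also marks bile duct cells, was 4.31-fold higher, with signals of 398.0 and 1600. Sp5, a transcription factor induced by Wnt, was 2.94-fold higher (107.4 and 276.7), and Id2, an inhibitor of helix-loop-helix factors, 2.76-fold higher (7937 and 21402). Ephb3, an ephrin receptor, was 2.66-fold lower (45538 and 16733). Of the 13 genes, 9 lay above 0 and 4 below. Of the 14515 genes well above background on both arrays, 7231 lay above 0 and 7271 below. Besides Ephb3 the genes of this list below 0 were Ephb2 (-0.53), Myc (-0.49) and Notum (-0.18), named after their values were seen. Notum, Nkd1 and Dkk4 are also in the list of Wnt inhibitors, and Lef1 and Tcf7 in that of TCF/LEF factors.

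Tnfrsf19 (2.36-fold) and Dkk4 (2.11-fold) were the further 2 past 2-fold, chosen to be named after their values were seen because the rule took 4 genes of a list. The second probe of Tnfrsf19, not well above background upon fasting, differed by 0.17, and Dkk4, a secreted Wnt antagonist, was short of 2-fold with scaling by the 75th percentile (0.97). Under the normexp correction 2 of the list, Sox9 and Id2, remained at least 2-fold higher, and Sp5 differed by 0.95. The share of all genes at least 2-fold higher under that correction was 1.32%.

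Upstream of the members, the list of Wnt ligands, R-spondins and their secretion factors had 14 of 25 genes measured. Of these, 1 was at least 2-fold higher and 1 lower, beside 3.29% and 4.62% of all genes. Rspo3, the R-spondin made by endothelial cells of the central vein, had signals of 1003 upon fasting and 1199 upon feeding, a difference of 0.34. Wnt2 stayed near background on both arrays, and no probe was named for Wnt9b. Wnt5b, a ligand mostly of β-catenin-independent signalling, was 2.28-fold higher (579.3 and 1231), and Wnt9a was 2.23-fold lower on a dim probe (61.5 and 23.9). Neither was past 2-fold under the normexp correction, with 0.97 and -0.30.

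Of the 17 Wnt and R-spondin receptors other than Lgr5, 13 were measured and 0 were past 2-fold, against 7.91% of all genes. The median was 0.02 over the 10 well above background on both arrays. Of the 18 genes of the destruction complex and its regulators, 2 were at least 2-fold lower and 0 higher. Among all genes these shares were 4.62% and 3.29%. Ctnnb1, which encodes β-catenin, had signals of 12924 and 13261, a difference of 0.06. The lower genes were Ppp2r1a, a scaffold of protein phosphatase 2A (1174 and 542.4, 2.02-fold lower), and Tnks, a tankyrase that promotes the degradation of Axin. Tnks was at least 3.02-fold lower, a bound since it was not well above background upon feeding. It was named after its values were seen, as it falls outside the rule for named genes. Under the normexp correction neither of these lower genes was past 2-fold, nor was Ppp2r1a with scaling by the median (-0.88).

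Among 15 TCF/LEF factors and cofactors, 13 were measured. Of these, 2 were at least 2-fold lower and 0 higher, beside 4.62% and 3.29% of all genes. Tle1, a Groucho corepressor of TCF/LEF factors, was 3.45-fold lower, from 3964 upon fasting to 1109 upon feeding. Its other probes differed by -1.60 and -0.83. Bcl9, a coactivator of β-catenin, was 2.34-fold lower on a dim probe (32.8 and 12.3), and under the normexp correction it differed by -0.21, short of 2-fold. Tcf7l2, the main TCF factor of hepatocytes, had signals of 60.5 and 31.6, a difference of -0.71, whereas its other 2 probes, neither well above background upon fasting, differed by 1.02 and -0.07. Of 17 secreted or intracellular Wnt inhibitors, 13 were measured and 1 was at least 2-fold higher, beside 3.29% of all genes. It was Dkk4, which is also in the list of targets, with 0.63 under the normexp correction.

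Other genes known to be enriched around the central vein included many drug-metabolising enzymes. Of the 19 measured, 1 was at least 2-fold higher and 1 lower, beside 3.29% and 4.62% of all genes, with a median of -0.16. Cyp2e1, a cytochrome P450 enriched in the pericentral zone, had signals of 115827 upon fasting and 108708 upon feeding, a difference of -0.04. Slc13a3, a dicarboxylate transporter, was 2.28-fold higher (387.7 and 811.0) but short of 2-fold under the normexp correction (0.87), and Aldh3a2, a fatty aldehyde dehydrogenase, was 2.64-fold lower (2201 and 795.2).

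Of 19 measured periportal genes, 4 were at least 2-fold lower and 1 higher, beside 4.62% and 3.29% of all genes, with a median of -0.14. The lower genes were Pck1 (7.72-fold), G6pc (3.41-fold), Sds (3.29-fold) and Hsd17b6 (2.67-fold), of which the first 3 encode enzymes of glucose production or serine breakdown. The higher gene, named after its values were seen, was Cdh1, which encodes E-cadherin (2067 upon fasting, 5033 upon feeding).

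Among 27 measured genes of glutamate, glutamine and ammonium handling, 4 were at least 2-fold lower and 2 higher, with a median of -0.11. The shares of all genes were 4.62% lower and 3.29% higher. The lower genes were transporters, Slc1a4 (5.21-fold) and Slc38a2 (3.73-fold) for neutral amino acids, Slc25a15 (2.75-fold) for ornithine and Slc38a4 (2.58-fold). The higher genes were Rhcg and the glutamine transporter Slc1a5, whose probes differed by 1.16 and 0.97. Under the normexp correction neither was past 2-fold (0.76 for Rhcg and 0.96 for Slc1a5), while the count of lower genes stayed at 4. The share of all genes at least 2-fold lower under that correction was 1.91%. Slc38a4 and Slc1a5 fell outside the rule for named genes and were named after their values were seen.

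**Figure D4:**
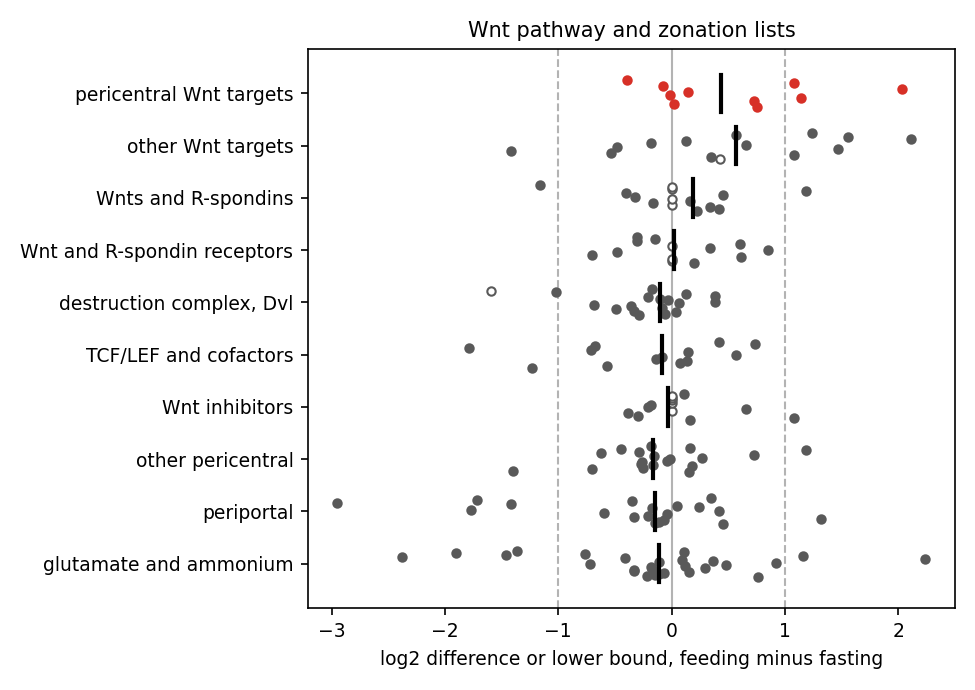
Log2 difference between feeding and fasting (x axis) of each measured gene in 10 lists (y axis), with dashed lines at 2-fold and a black bar at the median of the genes well above background on both arrays. Open points are genes well above background on 1 array, at their lower bound (0 where the bound has no direction); the members (red) have a median of 0.44 and the other Wnt targets 0.57, and the remaining lists lie between -0.16 and 0.19.

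The RNA carried the markers of hepatocytes at high signal on both arrays, with 8 of 8 measured, 0 past 2-fold and a summed normalized signal of 780813 upon fasting and 750758 upon feeding. The counts of this and the following marker lists stand beside 7.91% of all genes past 2-fold in either direction. Markers of endothelial cells of the central vein had 4 of 6 measured, 0 past 2-fold and a summed signal of 3348 and 2814. They were Thbd (-0.995, close to 2-fold lower), Selp (-0.14), Kit (0.23) and Rspo3 (0.34). Thbd, Selp and Kit were named after their values were seen. Markers of sinusoidal endothelial cells were below 0 in 8 of 8, with a median of -0.34 and 1, Pecam1, past 2-fold at -1.04 (summed signal 46440 and 36241). Of the 14515 genes well above background on both arrays, 7271 lay below 0. Pecam1 was short of 2-fold with scaling by the median (-0.98) and under the normexp correction (-0.79). Kupffer cell markers had a median of -0.41 with 1 of 7, C1qa, past 2-fold at -1.68 (54748 and 42029), and stellate cell markers a median of -0.60 over the 6 well above background on both arrays (58579 and 42209). Of the 8 stellate markers 1 was past 2-fold, Rgs5 at its bound, likewise named after its values were seen, and it was short of 2-fold under the normexp correction (-0.42). Bile duct markers had a median of -0.22 over 5 genes, with Sox9 the 1 gene past 2-fold (summed signal 2785 and 3402). Sox9, also in the list of Wnt targets, and Epcam (0.08) lay above 0. Spp1 (-0.46), Krt19 (-0.31) and Cftr (-0.22) lay below, so the summed signal follows Sox9. These markers other than Sox9 were named after their values were seen. Leukocyte markers had 0 of 6 past 2-fold and a median of 0.54 over the 5 well above background on both arrays, or 0.08 over all 6 as measured, with a summed signal of 2515 and 3051, and red blood cell markers 0 of 3 with 23759 and 22733. The part of these cells in the differences of the members was not tested.

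Each array had 44397 spots, none saturated, and Feature Extraction set 63.1% of the transcript spots of the fasting array well above background and 72.3% of those of the feeding array. The median local background was 29.5 upon fasting and 22.0 upon feeding. Beside the spots of Lgr5 and Rnf43 it was 39.5 and 34 upon fasting, against 22.0 and 24.5 upon feeding. Beside Oat, which differed little, it was 39 upon fasting and 23 upon feeding. The local background was lower upon fasting beside the brighter probe of Axin2 (22 against 24.5) and beside Rhbg (18 against 21). Whether this moved with the differences of the members was not tested. Both arrays lay on 1 slide and were read in 1 scan.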

How the data were processed

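The authors labelled the liver RNA (Cy3), used the Whole Mouse Genome array format with 1 sample per array, and extracted the spots with Agilent Feature Extraction 11.0.1.1. The deposited values are intensities per spot, with the background subtracted in the processed signal and no normalization between arrays. The deposited value table was not used, since it equals the mean local background at 44397 of 44397 spots of both arrays (relative tolerance 1e-06).

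Control spots (1377 per array) and outlier spots (141 upon fasting, 149 upon feeding) were left out. Log2 processed signals were averaged per probe and quantile normalized, as in the study's methods. RefSeq transcripts named 27218 of 39402 probes (GRCm38.p6). For each gene the probe brightest on average over both arrays was taken, and the gene counted as measured if at least 50% of the spots of that probe were well above background on at least 1 array. For 1719 genes dim upon fasting only and 112 dim upon feeding only, the fold is a bound, set against the lowest normalized signal that passed the background call on the dim array, or against the signal measured there if that was higher. No test was possible with 1 array per group. The spread of replicate spots came from 289 probes printed several times. This spread and the error that Feature Extraction gives per spot describe the measurement on the array, and 1 array per group gives no precision between mice.

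The members, the gene lists and the rule for named genes (all members and their paralogues, of each other list at most the 4 genes furthest past 2-fold and well above background on both arrays, and Ctnnb1, Tcf7l2, Rspo3, Wnt2, Wnt9b, Lgr4 and Cyp2e1 whatever their values) were chosen with earlier results of these data known. Alternatives were other scalings, normexp on the median signal (limma 3.58.1, R 4.3.3), other filters and thresholds, and the mean of a gene's probes. The normexp correction without its offset was chosen after seeing the data. The procedure was tested on simulated data.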

Additional observations from a re-analysis of the deposited data

How the results depend on the processing

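The count of members at least 2-fold higher was 3 with scaling by the 75th percentile or the median, with the mean of a gene's probes, without the lower bound and under both other filters. It was 1 under the normexp correction, 1 without its offset, 1 at 3-fold and 5 at 1.5-fold, and 0 members were lower in any of these. The median of the members, 0.44, was 0.22 under normexp and 0.27 without its offset, and 0.40 to 0.52 under the other settings. The share of all genes at least 2-fold higher, 3.29%, was 1.32% under normexp, 1.82% without its offset, 10.5% at 1.5-fold, 0.967% at 3-fold, 5.36% without the lower bound and 5.70% without a filter on dim probes; the share lower, 4.62%, was 1.91%, 2.34%, 10.6% and 1.90% under the first 4 of these. The offset of 50 adds to every signal and so draws dim differences towards 0 by construction; the cause of the rest of the change was not tested. Of 42 values of the 10 members under the alternatives, 17 moved by more than the SD of replicate spots, and no member past 2-fold changed sign. Of 72 counts of the other lists, 13 moved by over 1.5 times. The direction of the differences of Glul, Oat, Rhbg and Slc1a2 depends on the setting. No paired analysis was possible because the groups share 1 replicate number and hold 1 array each, and no replicate could be left out.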
